A study of Mus musculus with 15 samples.

Results

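Posterior eyecups, from which the neural retina had been removed, were examined for 9 genes that move or store cholesterol: the uptake receptors Vldlr, Lrp1 and Scarb1, the lipoprotein Apoe, the efflux transporters Abca1 and Abcg1, the lysosomal export proteins Npc1 and Npc2, and the cholesterol-esterifying enzyme Soat1. These 9 were taken by name from the 55421 genes listed in each count table by a rule that used no measured value, although earlier results of these data were known when they were chosen, and all 9 passed the filters and were among the 18979 genes tested. The RNA came from 15 mice aged 2.5 months on the C57BL/6 J background. There were 4 WT controls, 6 mice with 1 FUN025 allele of Tmem135 (FUN025/+) and 5 with FUN025 on both alleles (FUN025/FUN025). The eyecups of each mouse were pooled into 1 library, and the mutation is carried in every cell of the animal. Both sexes were used without a label of sex, and by the study's own listing their proportions differed between the genotypes. WT mice share the strain and the facility with the mutants, and no batch is labelled.

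Tissues take up cholesterol with lipoproteins, which bind receptors at the cell surface and are broken down in lysosomes. Free cholesterol then leaves the lysosome through the NPC2 and NPC1 proteins. Surplus is either esterified by SOAT1 and kept in lipid droplets, or passed by ABCA1 and ABCG1 to lipoprotein particles outside the cell. The retinal pigment epithelium of the eyecup handles lipid both from the blood and from shed photoreceptor outer segments. Oxysterols switch on the liver X receptors (LXRs), which raise transcription of Abca1, Abcg1 and Apoe in many cell types. The comparisons below ask how these genes stood in eyecups with 1 or 2 mutant alleles of Tmem135, which encodes a membrane protein of mitochondria and peroxisomes.

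Soat1 and Abca1 were the members called in FUN025/FUN025 eyecups, so the 250 bases before their start sites are printed for a view of what lies upstream of each. Both genes are read from the minus strand, and the sequences are from RefSeq on GRCm38.p6, written 5′ to 3′ in the direction of transcription. Capitals mark matches to 5 motifs that were searched on both strands from 250 bases before to 50 bases after the start.
Abca1, chr4:53159896-53160145: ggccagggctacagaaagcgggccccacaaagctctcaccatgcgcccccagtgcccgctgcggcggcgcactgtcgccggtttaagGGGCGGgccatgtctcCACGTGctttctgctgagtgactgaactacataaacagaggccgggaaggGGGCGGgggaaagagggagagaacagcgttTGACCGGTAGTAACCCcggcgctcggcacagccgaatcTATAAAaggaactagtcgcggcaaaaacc
Soat1, chr1:156474329-156474578: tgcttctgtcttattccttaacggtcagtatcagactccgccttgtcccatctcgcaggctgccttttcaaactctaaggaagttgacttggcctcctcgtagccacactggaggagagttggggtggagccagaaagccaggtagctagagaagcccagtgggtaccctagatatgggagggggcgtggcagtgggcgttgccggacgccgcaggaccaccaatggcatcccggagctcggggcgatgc

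The Abca1 sequence held a DR4 element, the direct repeat with a spacer that LXR and its partner RXR bind, read on the opposite strand and starting 67 bases before the start site. It also held the E-box CACGTG, 2 copies of GGGCGG and a TATAAA, which did not overlap the DR4 element or each other. In the Soat1 window the only match was a GGGCGG 29 bases after the start, beyond the printed stretch. RefSeq windows were found for 6 of the 9 genes, which had 9 windows in all, and none for Abcg1, Scarb1 and Npc1. Counted by window, a DR4 element was present in 1 of the 9 and in 0.621% of 32851 promoter windows of the genome. CACGTG was present in 1 of the 9 and in 7.15% of all windows, and TATAAA in 2 of the 9 (Abca1 and 1 window of Apoe) and in 13.62%. GGGCGG was present in 5 of the 9 (1 window each of Abca1, Lrp1, Npc2, Soat1 and Vldlr) and in 35.66%. The sterol element TCACNCCAC was matched in 0 of the 9 windows and in 1.242% of all windows, which says only that these letters were not in the windows read. These matches describe sequence, and binding was not measured.

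Total counts were 18094977 to 20029919 in WT libraries, 10903183 to 13456349 in FUN025/+ libraries and 11053535 to 15038383 in FUN025/FUN025 libraries. The WT libraries were thus all deeper than the mutant ones, and depth and genotype cannot be told apart in the comparisons with WT. The members had between 216 and 90255 counts in a library, so the floor of 3 counts (0.15 to 0.28 CPM, counting error only) was not near any of them. Tmem135 itself was at 63.8 ± 2.99 CPM in WT (SD, n = 4), 74.9 ± 7.28 in FUN025/+ (n = 6) and 88.2 ± 4.56 in FUN025/FUN025 (n = 5). Its log2 fold change was 0.23 in FUN025/+ and 0.47 in FUN025/FUN025 relative to WT (edgeR quasi-likelihood test, Benjamini-Hochberg adjusted p = 0.0248 and 1.47e-04). A count of reads over the whole gene does not read the allele. CPM here is a gene's count relative to the TMM-scaled total of its library, and replicates are separate mice.

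Expressed per kilobase of merged exon, which lets genes be ranked roughly, Apoe stood far above the rest. Merged exons hold the exons of every annotated transcript, and the length of the transcripts present was not measured. A gene whose transcripts are much shorter than its merged exons is placed too low. In WT eyecups it was at 2063 ± 195 CPM per kilobase (SD, n = 4), against 75.8 ± 10.9 for Lrp1 and 75.2 ± 3.64 for Npc2, whose ranges overlapped. Abca1 (14.3 ± 1.79), Soat1 (14.0 ± 0.501) and Scarb1 (13.8 ± 0.828) followed with neighbouring ranges that overlapped. Vldlr (11.2 ± 0.840), Npc1 (6.55 ± 0.218) and Abcg1 (3.17 ± 0.319) came last, each apart from the next. FUN025/+ eyecups had the same order, with Scarb1 and Vldlr overlapping as well. In FUN025/FUN025 eyecups Soat1 (19.9 ± 0.551, n = 5) and Abca1 (19.3 ± 2.71) overlapped each other and no longer overlapped Scarb1 (14.5 ± 0.519).

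**Figure D1:**
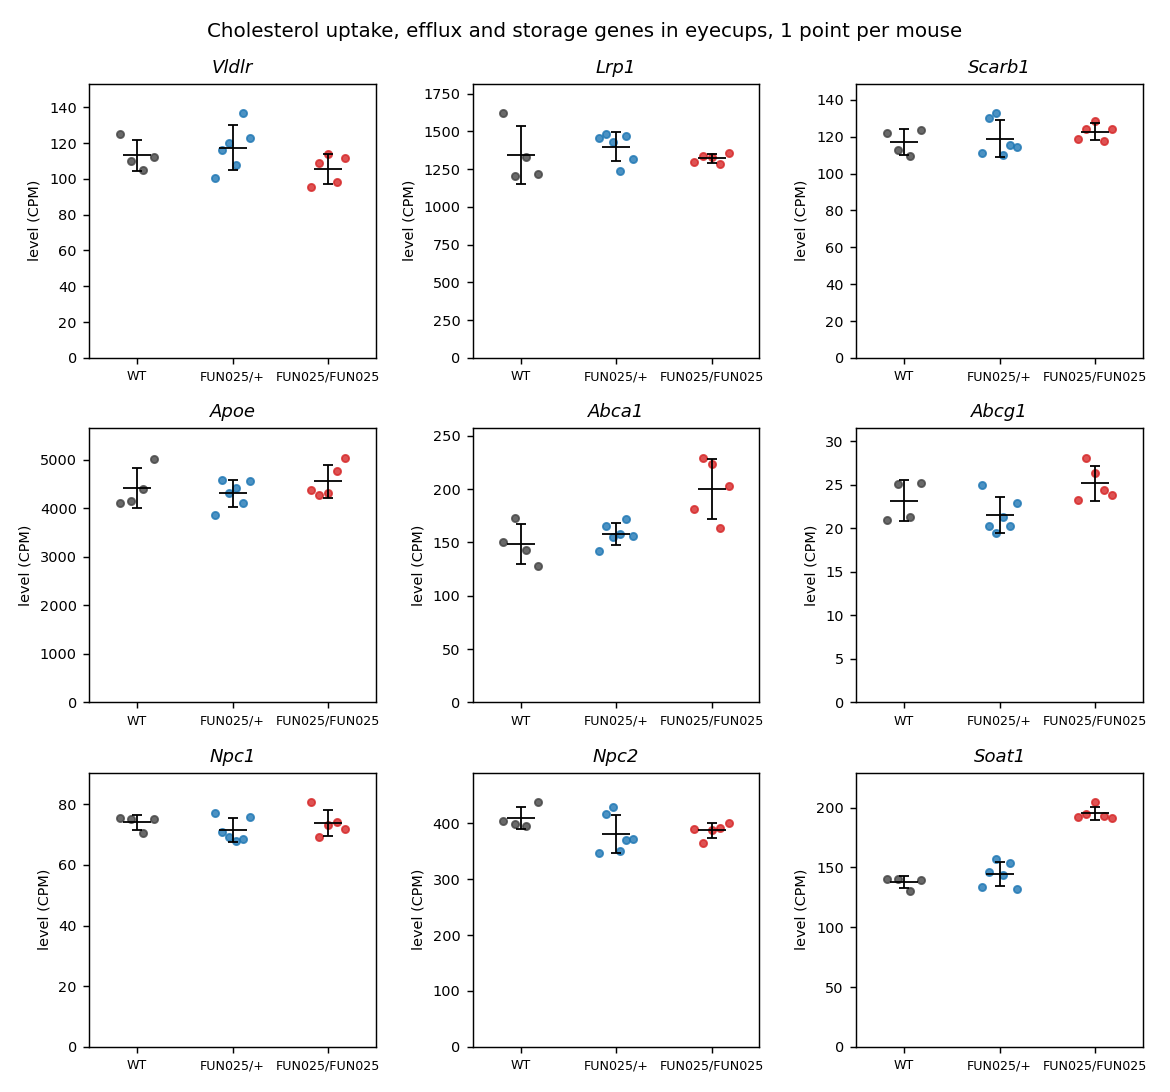
Level of each of the 9 genes in CPM (vertical axes, from 0) in WT (4 mice), FUN025/+ (6) and FUN025/FUN025 (5) eyecups. Each point is a mouse, the wide bar is the mean and the whiskers are ± 1 SD. The 5 FUN025/FUN025 points of Soat1 lie above all other mice, while those of Abca1 reach down into the WT range.

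Soat1, the gene of cholesterol storage, was higher in FUN025/FUN025 eyecups than in both other genotypes. It encodes sterol O-acyltransferase 1, the endoplasmic reticulum enzyme that joins a fatty acid to cholesterol for storage in droplets, and lies at chr1:156424525-156474331 on the minus strand. It was at 140.0, 140.5, 130.2 and 139.4 CPM in the 4 WT mice. The 6 FUN025/+ mice ran from 131.8 to 157.4 CPM with a median of 145, and the 5 FUN025/FUN025 mice were at 192.5, 194.4, 204.6, 192.8 and 191.5 CPM. All 5 homozygous mice were above all 10 others, and FUN025/+ overlapped WT. Soat1 was 1.42-fold higher in FUN025/FUN025 than in WT eyecups (log2 fold change 0.51 ± 0.053 SE, 95% interval of the fold 1.31 to 1.53, adjusted p = 4.12e-06 by edgeR's quasi-likelihood test). Against FUN025/+ it was 1.35-fold higher (0.43 ± 0.047 SE, interval 1.26 to 1.45, edgeR adjusted p = 4.10e-05). In FUN025/+ against WT the log2 fold change was 0.07 ± 0.050 SE (fold interval 0.977 to 1.13, edgeR adjusted p = 0.367).

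Set against the midpoint of the WT and FUN025/FUN025 means on the log2 scale, Soat1 in FUN025/+ lay lower by 0.18 ± 0.042 SE (log2 difference -0.18, edgeR adjusted p = 0.0286). The other 8 members did not pass that test. Of all tested genes 1.95% passed it, 1.25% higher and 0.706% lower than the midpoint. This call did not hold without WT mouse 2 or 4 or without FUN025/+ mouse 1, 2 or 6, where the log2 difference was -0.18 to -0.16 and the adjusted p 0.0565 to 0.0642 (edgeR). It was also lost with skeletal muscle and photoreceptor covariates (-0.14, edgeR adjusted p = 0.454), with the replicate block (-0.16, 0.0962), with protein-coding genes alone (-0.17, 0.0568) and with both mice numbered 3 of WT and FUN025/FUN025 left out (-0.18, 0.0571). With the muscle and photoreceptor covariates 0.237% of all tested genes passed.

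Abca1, the transporter that loads cholesterol and phospholipid onto apolipoproteins, was the second member called. The gene lies at chr4:53030787-53159895 on the minus strand. It was at 150.6, 172.7, 142.5 and 128.3 CPM in WT and at 141.8 to 172.0 CPM (median 157) in FUN025/+ mice. The FUN025/FUN025 mice were at 181.0, 229.7, 223.9, 163.5 and 203.0 CPM. Mouse 4 of the homozygotes lay below the highest WT mouse, so the groups overlapped, while the other 4 were above all WT and FUN025/+ mice. Abca1 was 1.35-fold higher in FUN025/FUN025 than in WT (log2 fold change 0.43 ± 0.098 SE, fold interval 1.17 to 1.56, edgeR adjusted p = 0.00857). This call was lost with an endothelium covariate (0.43, edgeR adjusted p = 0.149), with skeletal muscle and photoreceptor covariates (0.66, 0.0514) and with both mice numbered 3 of WT and FUN025/FUN025 left out (0.38, 0.0511). In these fits 3.61%, 2.98% and 8.57% of all tested genes were called, against 14% in the main fit. Against FUN025/+ the fold of Abca1 was 1.27 (log2 fold change 0.34 ± 0.088 SE) and did not pass the threshold (unadjusted p = 0.00131, edgeR adjusted p = 0.146). Without homozygous mouse 4 this last difference was 0.41 on the log2 scale with an edgeR adjusted p of 0.0219. In FUN025/+ against WT the log2 fold change was 0.09 ± 0.094 SE (edgeR adjusted p = 0.561).

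Abcg1, the partner transporter that passes cholesterol to larger lipoprotein particles, lies at chr17:31057675-31117988 on the plus strand and was the least abundant member per length. It was at 23.2 ± 2.33 CPM in WT (SD, n = 4), 21.5 ± 2.08 in FUN025/+ (n = 6) and 25.2 ± 2.02 in FUN025/FUN025 (n = 5), with ranges of 20.9 to 25.2, 19.4 to 25.01 and 23.2 to 28.1. The 3 ranges overlapped. Its log2 fold change was 0.12 in FUN025/FUN025 (fold interval 0.958 to 1.23, edgeR adjusted p = 0.387) and -0.10 in FUN025/+ (0.824 to 1.05, adjusted p = 0.433) relative to WT. Between the mutant genotypes it was 0.22 (1.04 to 1.31, unadjusted p = 0.0111, edgeR adjusted p = 0.50).

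None of the 3 uptake receptors passed the test in any comparison. Vldlr, the very low density lipoprotein receptor (chr19:27216484-27254231, plus strand), was at 113 ± 8.46 CPM in WT, 117 ± 12.6 in FUN025/+ and 106 ± 8.17 in FUN025/FUN025, and its ranges of 105 to 125, 100.3 to 137 and 95.6 to 114 overlapped. Its log2 fold change was -0.10 in FUN025/FUN025 relative to WT (fold interval 0.832 to 1.05) and -0.15 relative to FUN025/+ (0.810 to 0.998, unadjusted p = 0.0458, edgeR adjusted p = 0.780). Lrp1, a large receptor that takes up APOE-bearing remnants and many other ligands (chr10:127538161-127621148, minus strand), was at 1344 ± 194 CPM in WT, 1399 ± 98.3 in FUN025/+ and 1321 ± 27.9 in FUN025/FUN025. The WT mice were the most spread, from 1207 to 1622 CPM, and all 5 homozygous mice fell inside that range. Scarb1, which encodes SR-BI, the receptor that exchanges cholesterol with high density lipoprotein (chr5:125277087-125341094, minus strand), was at 117 ± 7.04, 119 ± 9.83 and 123 ± 4.41 CPM in the 3 genotypes in the same order. Its log2 fold change was 0.02 in FUN025/+ and 0.07 in FUN025/FUN025 relative to WT (fold intervals 0.935 to 1.11 and 0.962 to 1.15).

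Apoe encodes the apolipoprotein that serves both as a ligand for these receptors and as an acceptor of ABCA1-exported lipid (chr7:19696109-19699188, minus strand). It was at 4411 ± 418 CPM in WT, 4305 ± 280 in FUN025/+ and 4554 ± 339 in FUN025/FUN025. The highest WT mouse, at 5010 CPM, was level with the highest homozygous mouse, at 5042 CPM. The log2 fold change was 0.05 in FUN025/FUN025 relative to WT (fold interval 0.924 to 1.15, edgeR adjusted p = 0.735), so a rise in Apoe of the size seen for Abca1 lay outside its interval.

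Neither gene of the lysosomal pair passed the test in any comparison. Npc1, the membrane protein that moves cholesterol out of the lysosome (chromosome 18, 12189692 to 12236400, minus strand), was at 74.1 ± 2.47, 71.5 ± 3.90 and 73.9 ± 4.30 CPM in WT, FUN025/+ and FUN025/FUN025. In homozygous mice it differed from WT by -0.0043 on the log2 scale (fold interval 0.923 to 1.08), with the sign changing under several other settings. Exons of Npc1 overlap Rmc1 and Gm15956 on the opposite strand over 601 bases, and because the strand setting is not given in the sources used here, its reads there cannot be separated from theirs. Npc2, the soluble lysosomal protein that hands cholesterol to NPC1 (chr12:84754562-84773152, minus strand), was at 409 ± 19.8, 381 ± 34.4 and 387 ± 13.6 CPM. Its log2 fold changes relative to WT were -0.10 in FUN025/+ (fold interval 0.853 to 1.02) and -0.08 in FUN025/FUN025 (0.864 to 1.04).

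In counts, 2 of the 9 members passed an adjusted p of 0.05 in FUN025/FUN025 against WT, both higher, where 14% of all tested genes passed and 7.03% were higher. In FUN025/+ against WT 0 of the 9 passed, with 0 at an unadjusted p under 0.05 by edgeR and 0 passing by DESeq2 and limma-voom, where 13.7% of tested genes passed. Between the mutant genotypes 1 of 9 passed, where 0.522% of tested genes passed and 0.327% were higher. The groups of 1 member, Soat1, did not overlap in FUN025/FUN025 against WT (14.8% of tested genes) and in FUN025/FUN025 against FUN025/+ (1.13%), and 0 members were apart in FUN025/+ against WT (10.9%). The median log2 fold change of the 9 was 0.025 in FUN025/+ against WT, 0.046 in FUN025/FUN025 against WT and 0.046 between the mutant genotypes, where the medians of all tested genes were -0.0024, -0.0070 and -0.0039. The 7 members not called in FUN025/FUN025 against WT had log2 fold changes of -0.10 to 0.12 and fold intervals within 0.832 to 1.23. Both mutant groups were compared with the same 4 WT mice, and each mutant group also enters the comparison between them, so these comparisons are not independent of each other.

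**Figure D2:**
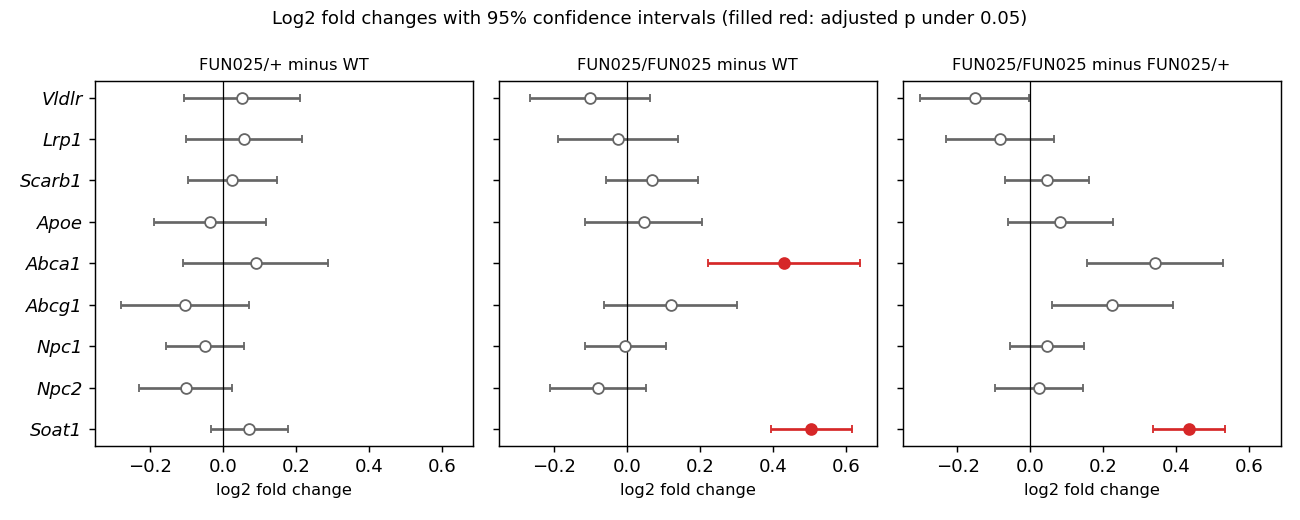
Log2 fold change of each gene (horizontal axes) with its 95% confidence interval in the 3 comparisons of genotypes. Filled red points passed an adjusted p of 0.05 and open points did not. Soat1 and Abca1 are filled in FUN025/FUN025 minus WT, Soat1 alone in FUN025/FUN025 minus FUN025/+, and none in FUN025/+ minus WT.

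The wider machinery of cholesterol traffic was read from 4 further lists holding 60 listed genes, of which 50 were tested. In FUN025/FUN025 against WT 6 of the 50 were higher and 2 lower, and in FUN025/+ against WT 4 were higher and 1 lower, against 7.03% and 7% of tested genes called higher and lower in the first comparison and 7.08% and 6.61% in the second. Between the mutant genotypes 1 of the 50 was higher, where 0.327% of tested genes were. The median log2 fold change of the 50 was -0.016 in FUN025/FUN025 and 0.00035 in FUN025/+ relative to WT.

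Among 6 other tested genes of storage and ester breakdown, Plin2, which coats lipid droplets, was the one that passed, where 7.03% of all tested genes were higher against WT and 0.327% between the mutants. It was at 93.9 ± 4.33 CPM in WT (SD, n = 4), 88.0 ± 12.9 in FUN025/+ (n = 6) and 120.3 ± 6.29 in FUN025/FUN025 (n = 5). The homozygous mice, at 110.0 to 126 CPM, did not overlap WT mice at 88.4 to 99.0 or FUN025/+ mice at 73.5 to 105.5. Plin2 was 1.28-fold higher than in WT (log2 fold change 0.36 ± 0.087 SE, edgeR adjusted p = 0.0123) and 1.37-fold higher than in FUN025/+ (0.45 ± 0.079 SE, adjusted p = 0.00811). The enzymes that act opposite or beside SOAT1 were looked up after their values were seen. Nceh1, a cholesteryl ester hydrolase, differed from WT in FUN025/FUN025 by -0.06 on the log2 scale (fold interval 0.863 to 1.07, edgeR adjusted p = 0.661), and Lipa, the lysosomal acid lipase, by 0.09 (0.970 to 1.16, adjusted p = 0.391). Soat2, the second acyltransferase, was close to the floor at 0.810 ± 0.210 CPM in WT and 0.451 ± 0.206 in FUN025/FUN025, with at most 19 and 9 counts in a library.

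Lysosomal and sterol transfer genes had 21 tested members, of which 2 were higher and 1 lower in each mutant genotype relative to WT. All tested genes had 7.03% higher and 7% lower in FUN025/FUN025 and 7.08% and 6.61% in FUN025/+, so these counts lay near the background, and the genes below are given for their own values. Stard4, a cytosolic carrier of sterol between membranes, was higher in both, at 18.4 ± 2.04 CPM in WT, 25.7 ± 2.45 in FUN025/+ (log2 fold change 0.48, edgeR adjusted p = 0.00159) and 30.6 ± 2.86 in FUN025/FUN025 (0.73, adjusted p = 3.41e-05). Neither mutant group overlapped WT for this gene. Scarb2, a lysosomal membrane protein, was higher in FUN025/FUN025 (0.24, edgeR adjusted p = 0.00426), and Scp2, a sterol carrier of peroxisomes, in FUN025/+ (0.19, adjusted p = 0.0432). Gramd1a, which moves cholesterol from the plasma membrane to the endoplasmic reticulum, was lower in both, by log2 fold changes of -0.32 in FUN025/+ and -0.25 in FUN025/FUN025 (edgeR adjusted p = 0.00469 and 0.0254).

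Of 10 tested genes of uptake, 2 were higher in FUN025/+ eyecups, while FUN025/FUN025 eyecups had 2 higher and 1 lower, beside the same shares of all tested genes (7.08% higher in FUN025/+, 7.03% higher and 7% lower in FUN025/FUN025). Sorl1, a sorting receptor of the same receptor family, was at 163 ± 23.3, 202 ± 22.0 and 230.2 ± 12.5 CPM in WT, FUN025/+ and FUN025/FUN025, with log2 fold changes of 0.31 and 0.49 relative to WT (edgeR adjusted p = 0.0317 and 0.00209). Lrp2, the megalin receptor, passed in FUN025/+ (0.36, edgeR adjusted p = 0.00997) and was at 0.19 in FUN025/FUN025 (adjusted p = 0.164), and the difference between the mutant genotypes did not pass (adjusted p = 0.783). Mylip, which marks lipoprotein receptors for degradation, was higher in FUN025/FUN025 (0.28, edgeR adjusted p = 0.00308), and Stab1, a scavenger receptor, was lower (-0.22, adjusted p = 0.0262). Of 13 tested efflux and lipoprotein genes 1 was higher in FUN025/FUN025, Clu, which encodes a lipid-carrying secreted chaperone (0.28, edgeR adjusted p = 0.0375), and 0 were called in FUN025/+ by edgeR.

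Because Abca1, Abcg1 and Apoe respond to LXRs, 12 other tested genes tied to LXRs were read beside them, some of which also stand in the lists above. The 12 include Nr1h3 and Nr1h2, which encode the LXRs themselves. In FUN025/FUN025 against WT 3 of the 12 were higher and 0 lower by edgeR (7.03% and 7% of all tested genes). In FUN025/+ against WT 0 were higher and 1 lower (7.08% and 6.61%), and between the mutant genotypes 2 were higher, Srebf1 and Lpcat3 (0.327%). Srebf1, a transcription factor of fatty acid synthesis, was at 166 ± 17.3, 176 ± 13.9 and 277 ± 19.0 CPM in WT, FUN025/+ and FUN025/FUN025. Its 5 homozygous mice, at 253 to 302 CPM, were above all others, at most 191 CPM, and its log2 fold change relative to WT was 0.74 (edgeR adjusted p = 2.82e-06). Lpcat3, which remodels phospholipids, was at 38.7 ± 2.86, 43.2 ± 1.96 and 61.8 ± 5.23 CPM and likewise did not overlap (0.67, edgeR adjusted p = 1.59e-06). These and Mylip were the 3 higher. Nr1h3, which encodes LXR alpha, was lower in FUN025/+ (-0.36, edgeR adjusted p = 0.0228), and its value in FUN025/FUN025 was -0.28 (adjusted p = 0.0803). The median log2 fold change of the 12 was 0.016 in FUN025/FUN025 and -0.063 in FUN025/+.

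Sterol synthesis is the source of cholesterol that runs beside uptake. Of 21 tested genes of synthesis and its feedback control, 15 passed in FUN025/FUN025 against WT, all of them higher (7.03% of all tested genes were), with a median log2 fold change of 0.48 over the list. For FUN025/+ against WT 9 passed, all higher (7.08% of all tested genes), with a median of 0.26. Between the mutant genotypes 2 were higher (0.327% of all tested genes): Insig1, which encodes a membrane protein that holds back the sterol-sensing activator of these genes and is no enzyme (0.64, edgeR adjusted p = 7.27e-04), and Dhcr7, which carries out the last reduction to cholesterol (0.32, adjusted p = 0.00638). In FUN025/+ eyecups Hmgcs1, which makes the synthesis precursor, was 1.37-fold higher than in WT (log2 fold change 0.45, edgeR adjusted p = 0.00249), where the log2 fold changes were 0.07 for Soat1, 0.09 for Abca1, -0.09 for Plin2, 0.08 for Srebf1 and 0.16 for Lpcat3. The difference between Hmgcs1 and these genes was not tested.

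**Figure D3:**
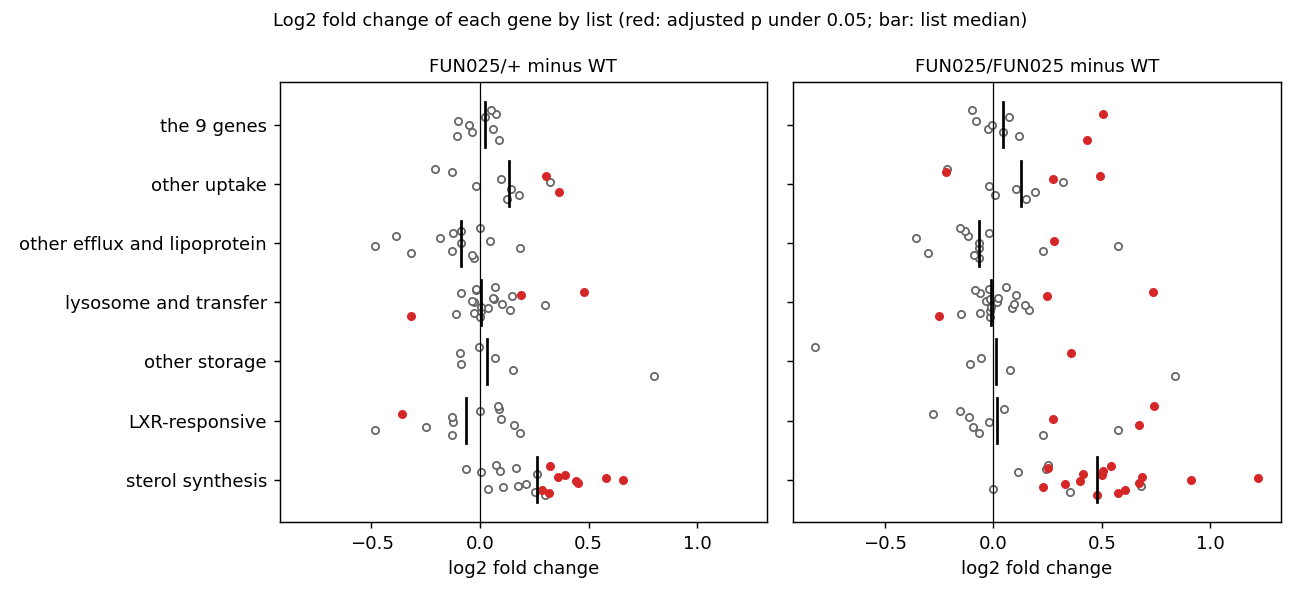
Log2 fold change relative to WT (horizontal axes) of every tested gene of the 9 members and of 6 further lists, for FUN025/+ on the left and FUN025/FUN025 on the right. Filled red points passed an adjusted p of 0.05, open points did not, and the black bar is the list's median, which is 0.48 for sterol synthesis and 0.046 for the 9 genes on the right.

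The eyecup holds several cell types, and in such bulk RNA fewer cells of a type and less RNA per cell cannot be told apart. The 11 markers of retinal pigment epithelium, the labelled tissue's defining cell layer, summed to 18258 to 22296 CPM in WT, 18224 to 23920 in FUN025/+ and 17962 to 22790 in FUN025/FUN025, and 0 of the 11 were called by edgeR in either mutant against WT. Relative to WT 8 of the 11 were higher in FUN025/+ and 7 were lower in FUN025/FUN025. Between the mutant genotypes 9 were lower in FUN025/FUN025 (median log2 fold change -0.16), with 0 called. Photoreceptor markers, which removal of the retina should leave out, were still at 847, 2590, 579 and 362 CPM in the 4 WT mice, 189 to 802 in FUN025/+ and 187 to 524 in FUN025/FUN025. The groups overlapped, and without WT mouse 2 the WT range ended at 847 CPM. All 12 were lower in both mutants, with 1 called in FUN025/FUN025. Skeletal muscle markers ranged from 4815 to 9756 CPM in WT and from 2571 to 7091 and 4133 to 5299 in FUN025/+ and FUN025/FUN025, and all 10 were lower in both mutants, with 2 called in each. Of 6 Schwann cell markers 1 was called lower in FUN025/+ and 2 in FUN025/FUN025, and all 5 erythrocyte markers were lower in both mutants without passing. Of 6 smooth muscle markers 1 was called lower in each mutant, although 5 had a positive log2 fold change in FUN025/FUN025. Fibroblast markers were lower in 8 of 8 in FUN025/+ and 7 of 8 in FUN025/FUN025, without passing. Beside these counts, 6.61% of all tested genes were called lower in FUN025/+ and 7% in FUN025/FUN025. No marker of the lists was at 0.

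In other tissues macrophages express Abca1, Apoe and Soat1 strongly and endothelium expresses Scarb1, so the markers of both are given beside these genes. The 14 macrophage and microglia markers summed to 922 to 1276 CPM in WT, 868 to 1235 in FUN025/+ and 1010 to 1149 in FUN025/FUN025. The homozygous range of this sum lay inside the WT range, although 12 of the 14 had a positive log2 fold change and 2 were called higher (7.03% of all tested genes were). As mean log2 CPM the 14 markers were at 5.25, 5.01, 5.01 and 5.39 in WT mice and 5.42, 5.30, 5.40, 5.24 and 5.43 in FUN025/FUN025 mice. On this measure the homozygous range reached above the WT range, and FUN025/+ mice ran from 5.01 to 5.50. Against FUN025/+, 10 of the 14 had a positive log2 fold change in FUN025/FUN025, with a median of 0.20, and 1 was called higher (0.327% of all tested genes were). With the mean log2 CPM of the 14 markers as a covariate, chosen after seeing the data, Soat1 had a log2 fold change of 0.46 (edgeR adjusted p = 2.73e-05) and Abca1 one of 0.43 (adjusted p = 0.0250) in FUN025/FUN025 against WT. In the same fit Soat1 had 0.39 against FUN025/+ (edgeR adjusted p = 3.36e-04). The 10 endothelial markers moved with genotype: they summed to 1159 to 1353 CPM in WT, 916 to 1256 in FUN025/+ and 843 to 1035 in FUN025/FUN025, all 10 were lower in FUN025/FUN025, 7 of them called, and 4 were called lower in FUN025/+. With the mean log2 CPM of the endothelial markers as a covariate Soat1 had a log2 fold change of 0.58 (edgeR adjusted p = 5.30e-04), while Abca1, at 0.43, no longer passed (adjusted p = 0.149). With the mean log2 CPM of skeletal muscle and of photoreceptor markers as covariates the value of Abca1 was 0.66 with an edgeR adjusted p of 0.0514 and that of Soat1 0.57 with 0.00337. In the endothelium fit 3.61% of all tested genes were called in FUN025/FUN025 against WT, and in the muscle and photoreceptor fit 2.98%. Without covariates 14% were called. The part of these cell types in the difference of Abca1 was not tested beyond these fits.

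**Figure D4:**
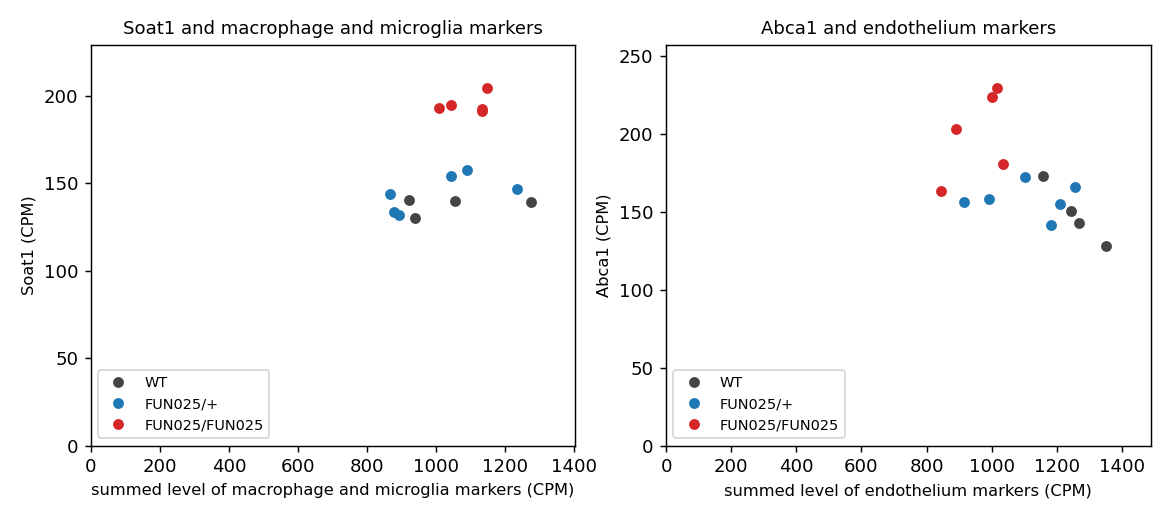
Left, Soat1 (CPM, vertical axis) against the summed level of 14 macrophage and microglia markers (CPM, horizontal axis). Right, Abca1 against the summed level of 10 endothelial markers. Each point is a mouse, coloured by genotype. The 5 FUN025/FUN025 mice lie above the others in Soat1 at marker levels of 1010 to 1149 CPM that other mice also reach, and those in the right plot lie to the left of all WT mice.

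Differences between mice of the same genotype add a view that genotype does not enter. After each genotype's mean log2 CPM was subtracted, Pearson's r over the 15 mice is given as a description with no test, and all points share library, dissection and depth. Marker lists entered as the mean log2 CPM of their genes. Vldlr and Scarb1 went with the pigment epithelium markers (r = 0.78 and 0.76), and Npc2 and Soat1 less so (0.60 and 0.55). Scarb1 and Npc2 also went with macrophage markers (0.78 and 0.71), but the macrophage and pigment epithelium lists themselves had r = 0.76. Soat1 had r = 0.49 with macrophage markers, and Abca1 had 0.28 with pigment epithelium and 0.02 with macrophage markers. Apoe went against photoreceptor markers (-0.66), and Vldlr also went with skeletal muscle markers (0.71).

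**Figure D5:**
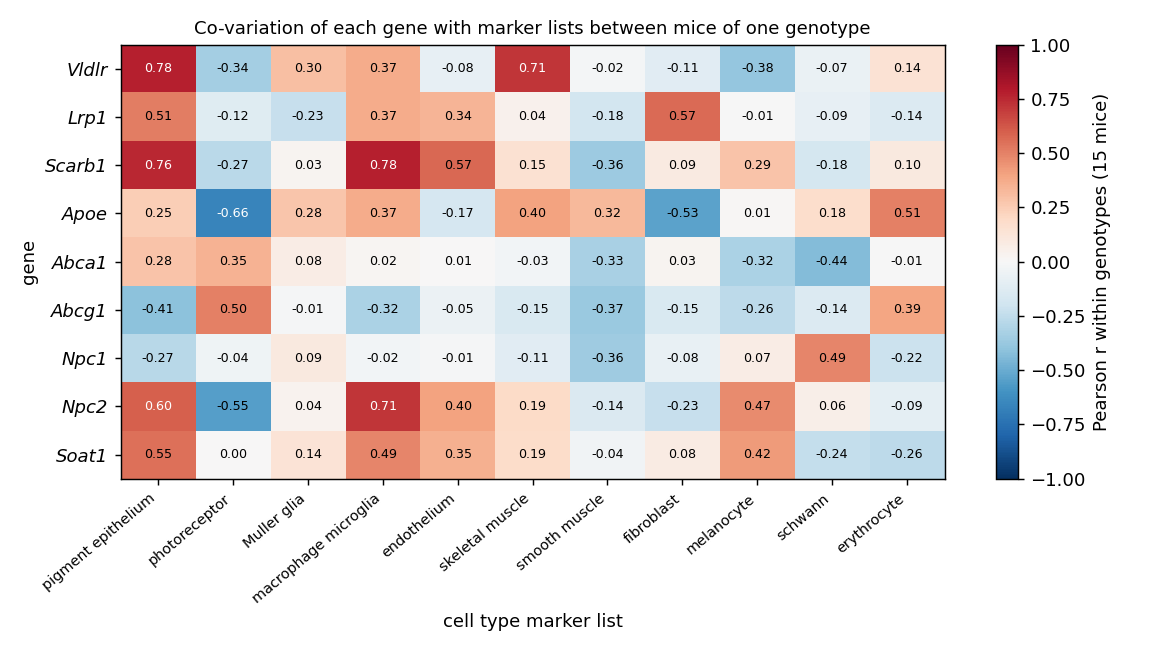
Pearson's r of each gene (rows) with the mean log2 CPM of each marker list (columns) over 15 mice after removal of genotype means. The colour scale runs from -1 (blue) to 1 (red), with the value in each cell. Vldlr has its highest value with pigment epithelium (0.78), Scarb1 stands at 0.76 there and 0.78 with macrophages, and Abca1 lies between -0.44 and 0.35 with all lists.

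Among the members themselves the closest pair was Scarb1 and Npc2 (r = 0.82), followed by Scarb1 and Soat1 (0.63). Apoe and Npc2, and Abca1 and Vldlr, each had r = 0.56, and Abca1 and Abcg1 had r = 0.11. Over 14466 other protein-coding genes with a mean of at least 1 CPM, the genes most like each member by the same r were as follows. Abca1 was most like Pds5b and Tmem245 (both 0.91), and Abcg1 like Ints5 (0.83) and Tas1r3 (0.81). Apoe was most like Vti1b (0.95) and Hsd17b10 (0.93), Npc2 like Plin2 (0.93) and Tmed4 (0.91), and Npc1 like Gtpbp3 and Fzd10 (both 0.87). Vldlr was most like Wwp1 (0.96) and Zfp385b (0.93), Lrp1 like Tor1aip2 and Gid4 (both 0.91), Scarb1 like Ms4a14 and Cisd2 (both 0.91), and Soat1 like Cnot7 and Dnajc1 (both 0.88). The fifth closest to Soat1 was Msr1, a scavenger receptor of macrophages named here after its value was seen (0.87, and 0.77 without the 2 mice farthest from the Soat1 median). The order rests in part on single mice. With the 2 mice farthest from each member's median left out, r was 0.79 and 0.68 for the genes named with Abcg1, 0.73 for both named with Npc1 and 0.85 and 0.86 for those named with Npc2, and other genes were then closer to these 3 members. Nothing is read from the names about shared function.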

How the data were processed

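RNA-seq was performed on 15 posterior eyecup samples, 1 per mouse. The authors deposited whole-number counts of reads per Ensembl gene without normalization. The submitters' processing notes name FastQC 0.11.8, Trimmomatic 0.39, HISAT2 2.1.0, SAMtools and featureCounts 2.0.0 on GRCm38, while the annotation, strand and multi-mapping settings are not given in the sources used here. Samples were grouped by the genotype in their labels. Symbols, positions and exon lengths were taken from GENCODE M21. The 15% of genes with the lowest variance of log2 CPM and those failing edgeR's filterByExpr were removed, leaving 18979 of 55421 genes.

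Counts were TMM-scaled (factors 0.977 to 1.02) and tested with edgeR 4.0.16 (robust quasi-likelihood test, all 15 mice in one fit, Benjamini-Hochberg over all tested genes, threshold 0.05) under R 4.3.3. The test was checked on simulated counts. DESeq2 1.42.0 and limma 3.58.1 served as alternatives, beside other scalings, filters, covariates and leaving out each mouse. The 9 members and all lists were chosen with earlier results of these data known. Named besides the members were list genes with an adjusted p under 0.05 (at most 4 per direction, list and comparison) and the 2 genes most like each member. Nceh1, Lipa, Soat2 and Msr1 lie outside this rule and were named after their values were seen. Chi-square per gene between libraries of a genotype was 3.23 to 18.9, so no library was a duplicate of another of its genotype. Libraries of different genotypes were not compared in this way.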

Additional observations from a re-analysis of the deposited data

Results flagged for a closer look

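Of 27 sets of values (9 genes in 3 genotypes), 3 had a mouse far from the rest by Dixon's gap test, which chance gives in about 1 of 20. WT mouse 3 was the lowest of its group for Npc1, at 70.4 CPM with the next mouse at 75.2, and for Soat1, at 130.2 CPM with the next at 139.4. FUN025/FUN025 mouse 3 was the highest of its group for Soat1, at 204.6 CPM with the next at 194.4. With both of these mice left out, an alternative chosen after seeing the data, the log2 fold change of Soat1 in FUN025/FUN025 relative to WT was 0.47 (edgeR adjusted p = 1.48e-04).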

How the results depend on the processing

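Soat1 kept its direction and passed the threshold in FUN025/FUN025 against WT (log2 fold change 0.45 to 0.58) and against FUN025/+ (0.39 to 0.47) under all 18 other settings, and without each mouse in turn (0.49 to 0.52 and 0.41 to 0.46). Abca1 against WT passed under 15 of the 18 and without each mouse (0.37 to 0.52). The count of members called in FUN025/FUN025 against WT fell from 2 to 1 with skeletal muscle and photoreceptor covariates (Abca1 0.66, adjusted p = 0.0514) and under 2 settings chosen after seeing the data, the endothelium covariate (0.43, 0.149) and leaving out both mice numbered 3 of WT and FUN025/FUN025 (0.38, 0.0511). Between the mutant genotypes it was 2 with DESeq2's Wald test (Abca1 0.34, adjusted p = 0.0253) and 1 to 2 without each mouse. Against the midpoint it fell from 1 to 0 (Soat1) with those covariates (-0.14, adjusted p = 0.454), protein-coding genes alone (-0.17, 0.0568) and both mice 3 left out (-0.18, 0.0571), and was 0 to 1 without each mouse. In FUN025/+ against WT it was 0 throughout. The share of all tested genes called ranged over these settings from 1.17% to 15.7% in FUN025/+ against WT, 2.98% to 16% in FUN025/FUN025 against WT, 0.316% to 1.05% between the mutants and 0.237% to 3.55% against the midpoint. The causes of these changes were not tested.

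The replicate numbers of the labels do not pair the mice: deviations of same-numbered mice correlated at -0.385 to 0.133, and 1 of the pairs was over 0.1. With the replicate block the midpoint count was 0 (Soat1 -0.16, adjusted p = 0.0962), the sign changed for Vldlr in FUN025/+ against WT (-0.0092), Npc1 in FUN025/FUN025 against WT (0.0039) and Scarb1 against the midpoint (0.0010), and no other call changed.

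Signs also changed for members that were not called. In FUN025/+ against WT these were Vldlr (-0.0014) and Apoe (0.081) with a GC offset, and Abcg1 (0.12) and Scarb1 (-0.028) with muscle and photoreceptor covariates. In FUN025/FUN025 against WT they were Npc1 with upper quartile scaling (0.013), DESeq2 (0.00049), thinned counts (0.016) and protein-coding genes (0.013), Lrp1 with a GC offset (0.068) and endothelium (0.091), Apoe with muscle and photoreceptor (-0.073), macrophage (-3.29e-05) and endothelium (-0.0051) covariates, Vldlr with muscle and photoreceptor (0.11), Scarb1 with macrophage (-0.013) and Npc2 with endothelium (0.034). Between the mutants they were Scarb1 (-0.037) and Npc2 (-0.053) with the macrophage covariate. Against the midpoint they were Scarb1 with macrophage (0.031), Apoe with GC (0.0029) and Abca1 with muscle and photoreceptor (0.018). Without each mouse, ranges crossed 0 for Apoe (-0.068 to 0.039) and Scarb1 (-0.0067 to 0.061) in FUN025/+ against WT, Lrp1 (-0.065 to 0.078) and Npc1 (-0.029 to 0.018) in FUN025/FUN025 against WT, Npc2 between the mutants (-0.0019 to 0.066) and Scarb1 against the midpoint (-0.046 to 0.0095).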
